A study of Mus musculus with 4 samples.

Results

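The genes described here encode enzymes of glycolysis in muscle, and they were chosen by name: hexokinase Hk2, phosphofructokinase Pfkm, aldolase Aldoa, glyceraldehyde-3-phosphate dehydrogenase Gapdh, phosphoglycerate mutase Pgam2 and enolase Eno3. Of these 6 genes, 5 were among the 1000 genes of the deposited count table. Aldoa was not among the listed genes and was not analysed here. The libraries came from frozen tibialis anterior, a fast leg muscle, of Dmd Dup2 mice, a dystrophinopathy model with a duplicated dystrophin exon 2 that both groups carried. An untreated control group was compared with a group treated with scAAV9.U7-ACCA, an adeno-associated viral vector of serotype AAV9 with a self-complementary genome, which expresses a U7 small nuclear RNA that makes splicing skip an exon. Each group had 1 RNA-seq library and 1 library of ribosome footprints, the mRNA fragments that ribosomes cover. The labels state neither dose, age nor sex, nor whether animals were pooled. With 1 library per group no difference below has a replicate check.

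Glycolysis splits glucose into pyruvate in the cytosol and yields ATP without oxygen, which fast fibres draw on during bursts of work. Hexokinase traps glucose in the cell, and phosphofructokinase commits it to the pathway and is its main control point. The later enzymes are among the most abundant soluble proteins of muscle, and most of them work close to equilibrium. Hk2, Pfkm, Pgam2 and Eno3 are the isozymes typical of muscle, whereas Gapdh serves nearly all cells and is a common reference gene.

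Libraries held between 125236 listed reads (untreated mRNA) and 4248818 (treated mRNA), with 3349015 and 1664122 in untreated and treated footprints. All 7 skeletal fibre markers looked for, titin among them, were listed. Dmd, the gene the vector acts on, had 25 and 1959 reads in the untreated and treated mRNA libraries and 80 and 183 footprints, and its ratios of 3.63 (95% interval 2.45 to 5.63) and 4.74 (3.62 to 6.24) were called higher by the rule given with the members below. Skeletal fibre markers summed to 209568 and 568181 in untreated and treated mRNA, with 4 of the 7 genes called higher and 0 lower. The unit, used for levels throughout, is depth-scaled reads per 1000000 listed reads. Titin alone gave 69264 and 333587 of these sums. In footprints the same markers summed to 203733 and 247653, with 1 higher and 2 lower. Summed fast fibre markers (12 of 13 listed) stood at 240399 and 291953 in mRNA, with 4 higher and 0 lower. Their footprints stood at 313352 and 334198, with 2 higher and 3 lower. Slow fibre markers (5 of 9 listed) summed to 1800 and 2794 in mRNA, with 1 of these 5 genes higher and 3 lower. Their footprint sums went the other way, at 9059 and 7669, with 0 higher and 2 lower. Macrophage markers (5 of 11 listed) summed to 1327 and 291 in mRNA and to 1771 and 833 in footprints. Fibroblast markers (7 of 8 listed) summed to 17027 and 3748 in mRNA. Their footprints summed to 28146 and 6097, with 0 higher and 6 lower. The 1 listed adipocyte marker of 4 stood at 95.7 and 113 in mRNA and at 41.7 and 181 in footprints. Only its footprints were called higher. For comparison, 31.8% of all listed genes were called higher and 24.8% lower in mRNA, and 19.9% and 26.2% in footprints. No listed marker was at 0 in any library. The red blood cell and endothelial markers looked for were not among the listed genes.

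Sequences upstream of the start are shown for 3 of the members with a single start in the RefSeq promoter table (GRCm38.p6). These were Hk2, whose footprints were higher in treated muscle, Gapdh, whose footprints were lower, and Pgam2, called neither way. In mRNA Gapdh was instead called higher, and Hk2 and Pgam2 neither way. The mRNA calls of Gapdh and Hk2 depended on the scaling, as described below. The 3 genes were picked with these calls known. The plan was to show sequences only if the members moved together, which they did not. Eno3, also with a single start and called neither way, is not shown. Each run is the 250 bases before the start, in the direction of transcription, and capitals mark the motif matches. The stretches lie at chr6:82774455-82774704 for Hk2, chr6:125165774-125166023 for Gapdh and chr11:5803797-5804046 for Pgam2, all on the minus strand.
Hk2: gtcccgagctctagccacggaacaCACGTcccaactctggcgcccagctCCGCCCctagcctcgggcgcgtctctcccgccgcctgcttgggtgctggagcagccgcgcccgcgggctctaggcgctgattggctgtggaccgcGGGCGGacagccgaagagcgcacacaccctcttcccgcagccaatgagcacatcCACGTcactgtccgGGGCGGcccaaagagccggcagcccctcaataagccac
Gapdh: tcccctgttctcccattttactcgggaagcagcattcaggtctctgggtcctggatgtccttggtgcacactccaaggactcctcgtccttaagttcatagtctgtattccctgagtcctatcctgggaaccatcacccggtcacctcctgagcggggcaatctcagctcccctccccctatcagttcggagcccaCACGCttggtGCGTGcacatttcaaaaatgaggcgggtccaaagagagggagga
Pgam2: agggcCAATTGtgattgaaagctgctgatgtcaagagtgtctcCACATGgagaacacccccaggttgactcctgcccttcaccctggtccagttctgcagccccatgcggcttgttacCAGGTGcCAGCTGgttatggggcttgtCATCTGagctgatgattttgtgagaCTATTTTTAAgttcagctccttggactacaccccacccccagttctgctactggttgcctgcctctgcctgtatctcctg
Motifs were searched on both strands. The Hk2 stretch held 2 matches to the core of the hypoxia element (ACGTG or GCGTG) that began 226 and 52 bases before the start, and 3 to the Sp1 box (GGGCGG) at 201, 106 and 38 bases. The Gapdh stretch held 2 hypoxia element matches at 54 and 44 bases and none of the other motifs. Pgam2 held 5 E-boxes (CANNTG), the core bound by myogenic factors such as MyoD, at 245, 207, 132, 125 and 105 bases. It also held the only match among the 6 members to the MEF2 motif, named for another muscle factor, at 80 bases. Of all 32851 windows in the table, 38.6% held the hypoxia element, 32.7% the Sp1 box, 66.2% the E-box and 2.92% the MEF2 motif. The TATA box (TATAAA) was in 12.4% of windows and the MCAT box (CATTCC) in 12.6%, and neither was in these 3 stretches. The Eno3 stretch held 1 MCAT box match at 47 bases, 1 hypoxia element match at 130 and 1 E-box at 81. A hypoxia element and an E-box can overlap in the letters CACGTG, which none of the 3 stretches held. These matches describe the letters and are no evidence of binding.

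**Figure D1:**
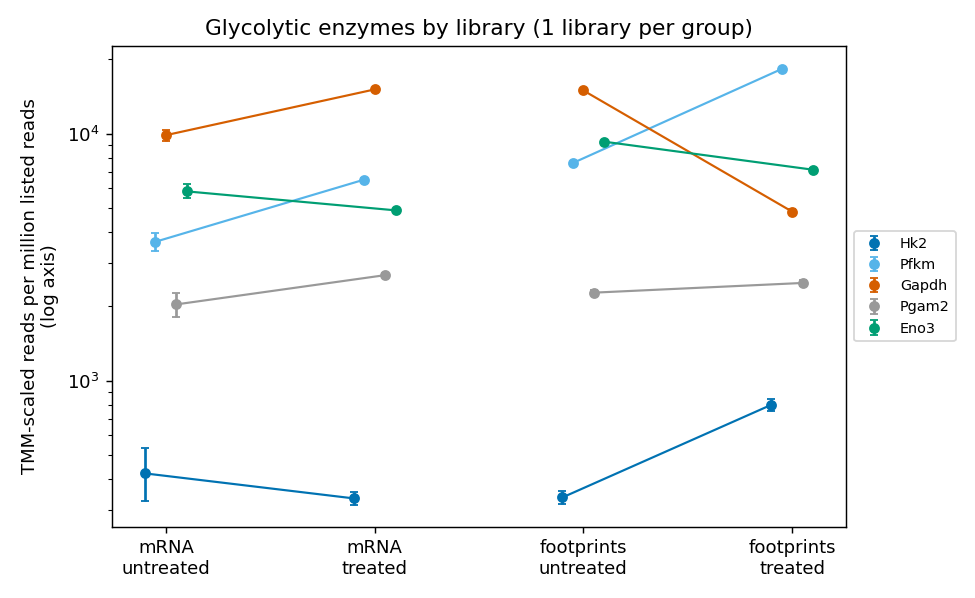
TMM-scaled reads per 1000000 listed reads (log axis) of the 5 listed members in the 4 libraries, with exact Poisson 95% intervals that cover counting error only. Lines join the untreated and treated library of each assay. In footprints Pfkm stood at 7609 untreated and 18275 treated, and Gapdh at 14958 and 4835.

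Hk2 and Pfkm carried more footprints in treated muscle, Gapdh carried fewer, and Pgam2 and Eno3 stayed within 1.5-fold. A gene was called when the 2 libraries differed by at least 1.5-fold, the 95% interval excluded 1 and the pair held at least 50 reads. Ratios are of reads scaled by TMM (trimmed mean of M values), with an exact binomial interval that covers counting error only. Of the 5 listed members, 2 were called higher in footprints and 1 lower, while over all listed genes 19.9% were called higher and 26.2% lower. The median member log2 ratio was 0.13 and that of all genes −0.02.

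Hk2 (NM_013820), the insulin-regulated hexokinase of muscle, had 1147 footprints untreated and 1313 treated. Scaled for depth these were levels of 337 and 798, 2.37-fold higher (95% interval 2.19 to 2.57) in the treated library. Its mRNA went the other way within its error, with 66 and 1127 reads, or levels of 421 and 334, at a ratio of 0.792 (0.618 to 1.03). The treated library was thus the higher of the 2 for Hk2 footprints and not for its mRNA.

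Pfkm (NM_021514), the muscle phosphofructokinase whose loss causes a glycogen storage disease, had 25915 and 30066 footprints. Its scaled level was 7609 untreated and 18275 treated, 2.40-fold higher (2.36 to 2.44). Pfkm ranked 53 from the highest among 999 genes, and Hk2 ranked 55. Pfkm mRNA gave 572 and 22008 reads, or levels of 3651 and 6515, 1.78-fold higher (1.64 to 1.94) with TMM. Both Pfkm measures were high in the treated libraries on this scale.

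Gapdh (NM_008084), the step of the pathway that yields NADH, had 50943 footprints untreated and 7955 treated. The scaled level was 14958 and 4835, 3.09-fold lower (3.02 to 3.17), and Gapdh ranked 953 among 999 genes. Its mRNA instead gave 1545 and 51025 reads, or levels of 9860 and 15106, 1.53-fold higher (1.46 to 1.61) with TMM. The treated muscle was therefore the lower of the 2 in Gapdh footprints and, on this scale, the higher in Gapdh mRNA. Gapdh has many processed pseudogenes, and the labels do not say how reads shared between copies were counted.

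Pgam2 (NM_018870), the mutase that moves the phosphate of phosphoglycerate, had 7736 and 4090 footprints, or levels of 2271 and 2486, at a ratio of 1.09 (1.05 to 1.14). Its mRNA reads were 319 and 9032, or levels of 2036 and 2674, a ratio of 1.31 (1.17 to 1.47). Eno3 (NM_007933), the enolase of adult fibres, had 31604 and 11756 footprints, or levels of 9279 and 7146, at a ratio of 0.770 (0.754 to 0.787). Eno3 mRNA gave 915 and 16528 reads, or levels of 5840 and 4893, a ratio of 0.838 (0.784 to 0.897). Counting intervals of both genes excluded 1 in each assay, but no ratio reached the fold threshold with TMM. With the authors' library constants Eno3 footprints were called lower, at a ratio of 0.638. The direction of Pgam2 depended on the scaling. Its mRNA ratio was 0.835 (0.746 to 0.936) with the listed totals and 0.713 (0.637 to 0.799) with the authors' constants, and its footprint ratio was 0.907 (0.873 to 0.942) with those constants.

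In mRNA 2 members were called higher (Pfkm and Gapdh) and 0 lower, where all listed genes gave 31.8% higher and 24.8% lower. The member median was 0.39 on the log2 scale against 0.06 over all genes. The part of the higher summed mRNA of skeletal fibre markers in these calls was not tested. These mRNA calls rest on the scaling. With the listed totals the ratio of Pfkm was 1.13 (1.04 to 1.23) and that of Gapdh 0.973 (0.925 to 1.02), and with the authors' library constants they were 0.969 (0.891 to 1.05) and 0.831 (0.790 to 0.875). In the same 2 settings Hk2 was called lower, at 0.503 and 0.430, and so was Eno3, at 0.532 and 0.455. Titin mRNA (Ttn) took 8.67% of untreated and 26.5% of treated listed mRNA reads, and its part in these differences was not tested. By contrast, the footprint calls of Hk2, Pfkm and Gapdh were made under each of the 6 scalings tried, with ratios of 1.96 to 2.49 for Hk2, 1.99 to 2.53 for Pfkm and 2.94 to 3.73-fold lower for Gapdh.

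**Figure D2:**
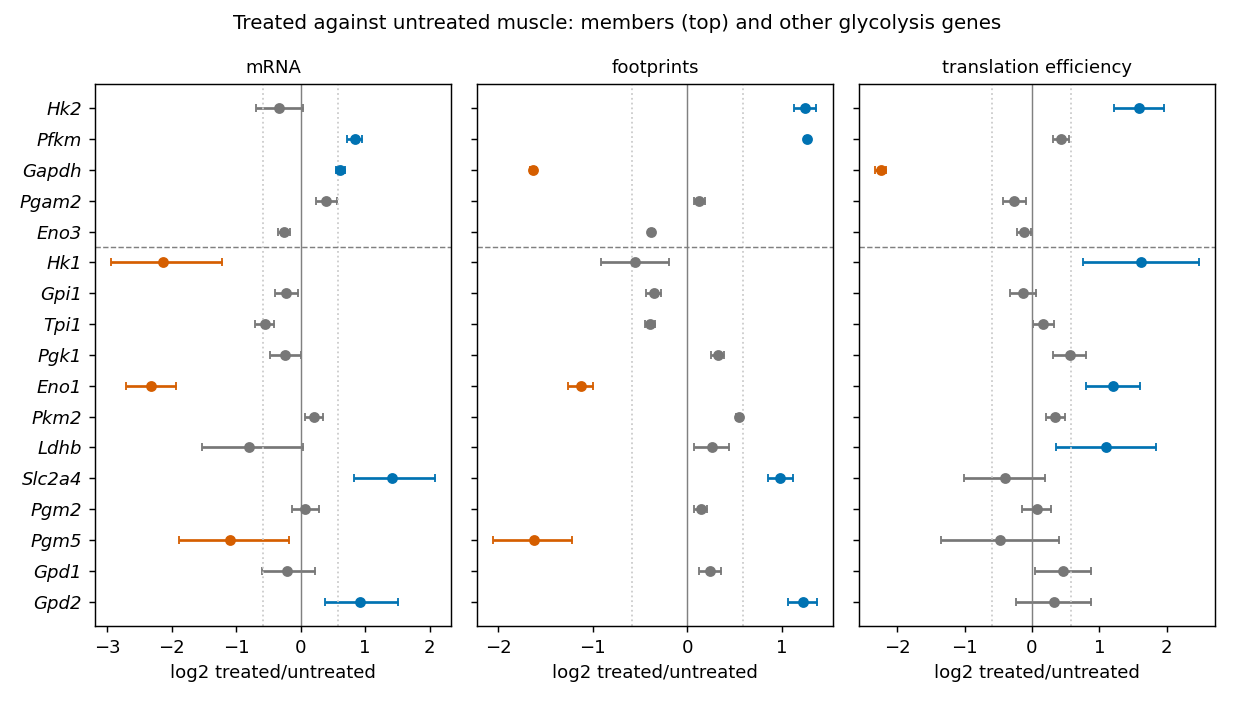
Log2 ratios of treated to untreated muscle with 95% counting intervals in mRNA, footprints and translation efficiency, for the 5 listed members (above the dashed line) and 12 other glycolysis genes. Blue marks genes called higher, orange those called lower, and dotted lines show the 1.5-fold threshold. In footprints Hk2 and Pfkm sit at 1.24 and 1.26 and Gapdh at −1.63.

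Translation efficiency, that is, the treated to untreated ratio of footprints over that of mRNA, separated Hk2 and Gapdh from the other members. Hk2 was 3.01-fold higher (2.32 to 3.91) and ranked 80 from the highest among 995 genes, while Gapdh was 4.74-fold lower (4.48 to 5.01) and ranked 961. Pfkm stood at 1.35 (1.24 to 1.47), Pgam2 at 0.835 (0.742 to 0.939) and Eno3 at 0.920 (0.857 to 0.986). Thus 1 member was called higher and 1 lower, against 26.0% and 31.9% of all genes. The calls of Hk2 and Gapdh were made under each of the 6 scalings, at 3.01 to 4.61-fold higher and 3.10 to 4.74-fold lower. Pfkm passed the threshold under 4 of them, reaching 2.06 with the listed totals. In the same setting Pgam2 stood at 1.28 and Eno3 at 1.41, above 1 rather than below it.

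Footprints per mRNA read were also compared with the median listed gene within each condition, where no scaling between conditions enters. Untreated Gapdh had 1.52 times (1.44 to 1.60) the footprints per mRNA read of the median listed gene, whereas treated Gapdh lay 3.10-fold (3.02 to 3.17) below that gene. Hk2 went from 0.794 (0.620 to 1.02) in untreated muscle to 2.41 (2.23 to 2.61) in treated muscle. Pfkm was above the median gene in both, at 2.08 (1.92 to 2.26) and 2.83 (2.78 to 2.88), and so was Eno3, at 1.59 (1.49 to 1.70) and 1.47 (1.44 to 1.51). Pgam2 stayed near it, at 1.11 (0.996 to 1.25) and 0.938 (0.904 to 0.974). On this measure the interval of Gapdh lay above the median gene in untreated and below it in treated muscle. Other crossings appeared in other settings: against the summed listed reads Hk2 lay below in untreated (0.650) and above in treated muscle (2.97), and with 5 added to each count Pgam2 lay above at 1.28 and below at 0.935.

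**Figure D3:**
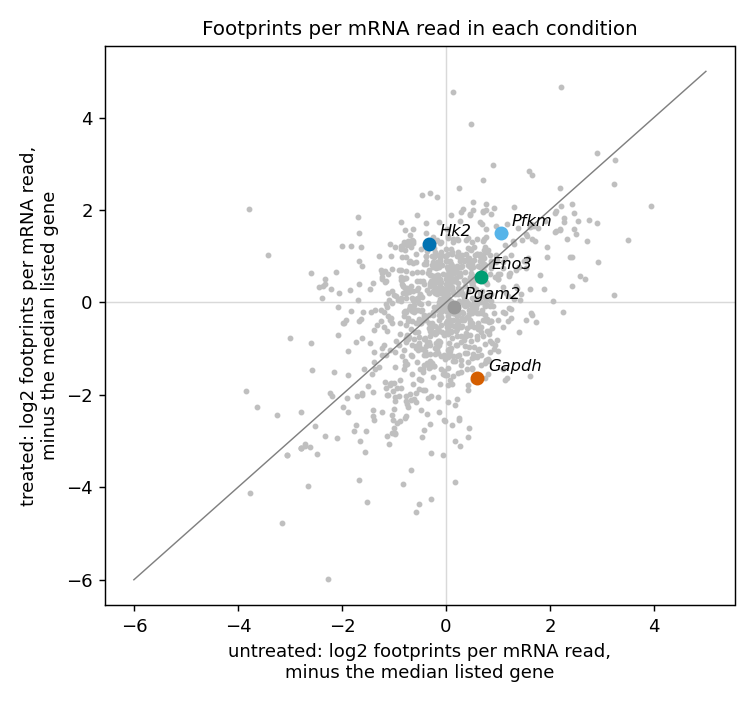
Footprints per mRNA read in untreated (horizontal) and treated (vertical) muscle, on the log2 scale relative to the median listed gene. Grey points are all listed genes and the line marks equal values. Gapdh lies below the line, at 0.60 and −1.63, and Hk2 above it, at −0.33 and 1.27.

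Ratios between members within a library need no scaling between libraries. Shares of reads also reflect the length of each gene, so they are compared here between libraries and not between genes. Together the 5 members held 3.50% (95% Clopper-Pearson interval 3.48 to 3.52) of untreated and 3.32% (3.29 to 3.34) of treated footprints, and 2.73% (2.64 to 2.82) and 2.35% (2.33 to 2.36) of untreated and treated mRNA reads. Behind these similar sums the makeup differed. Pfkm made up 22.1% (21.8 to 22.3) of the members' footprints in untreated and 54.5% (54.1 to 54.9) in treated muscle, and Gapdh 43.4% (43.1 to 43.7) and 14.4% (14.1 to 14.7). In mRNA Gapdh held 45.2% (43.5 to 46.9) and 51.2% (50.9 to 51.5). The ratio of Pfkm to Gapdh footprints was 7.43-fold higher (7.22 to 7.65) in the treated than in the untreated library, while the same ratio in mRNA was 1.17-fold higher (1.06 to 1.28). The ratio of Hk2 to Pfkm in footprints differed by a factor of 0.987 (0.910 to 1.07), but the Hk2 to Pfkm ratio in mRNA was 2.25-fold lower (1.73 to 2.93) in the treated library.

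**Figure D4:**
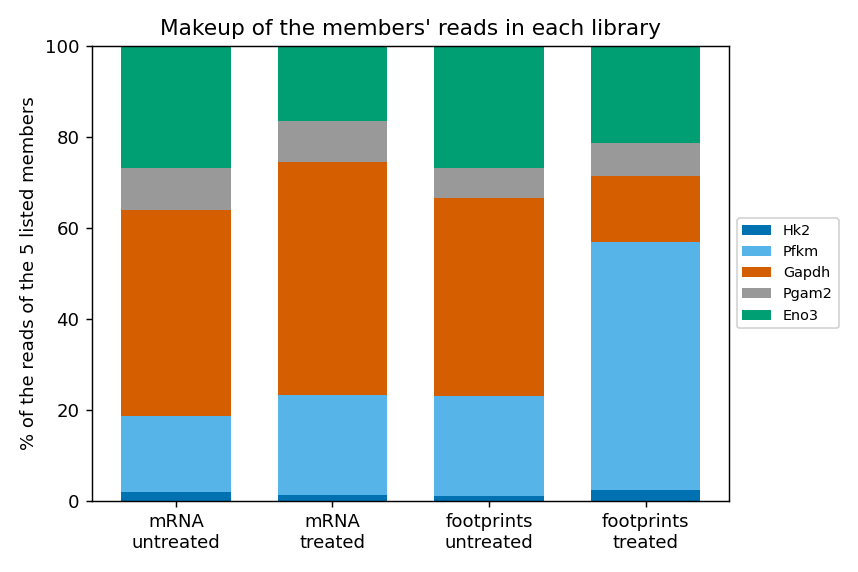
Share of each member in the reads of the 5 listed members, in percent, for the 4 libraries. Pfkm holds 22.1% of untreated and 54.5% of treated footprints, and Gapdh 43.4% and 14.4%.

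Further genes came from a list of 39 that covers other steps and isozymes of the pathway and genes of its feeding and control. Of these, 12 were in the table: 5 of other steps, 2 other isozymes and 5 of feeding and control. In footprints 2 were called higher and 2 lower, where all listed genes gave 19.9% and 26.2%. Both higher calls and 1 of the lower calls were in the feeding and control class, and the other lower call was an isozyme, Eno1. In mRNA 2 were called higher and 3 lower, beside 31.8% and 24.8% of all genes. Tpi1 and Ldhb mRNA, at 0.679 and 0.574, were each called lower under 4 of the 6 scalings. In translation efficiency 3 were called higher (Hk1, Eno1 and Ldhb) and 0 lower, beside 26.0% and 31.9% of all genes. These 3 had 15, 69 and 16 untreated mRNA reads. Pgk1, with 154, stood at 1.48 (1.25 to 1.75) and was called higher under 5 of the 6 scalings. The median log2 ratio of the 12 genes was 0.19 in footprints and −0.23 in mRNA. The listed genes of remaining steps were Gpi1, Tpi1, Pgk1, Pkm2 (pyruvate kinase, now named Pkm) and Ldhb (a lactate dehydrogenase subunit typical of oxidative tissue). They had footprint ratios of 0.764 to 1.46 and none was called. Ldha, also a lactate dehydrogenase gene, was looked for and was not among the listed genes, so that step is covered by Ldhb only. Pkm2, the enzyme that ends the pathway and its other control point, came nearest at 1.46 (1.43 to 1.49), from 21768 and 15393 footprints, and was called higher at 1.54 (1.51 to 1.57) when the 20 most abundant genes were left out of the totals.

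Both listed isozymes that are widespread outside muscle, Hk1 and Eno1, were lower in treated mRNA, under each of the 6 scalings. Hk1, the hexokinase of brain and most other tissues, had 15 and 74 mRNA reads and was 4.37-fold lower (2.33 to 7.68), while its footprint ratio, from 272 and 90 reads, was 0.685 (0.534 to 0.872), and was called lower in 3 of the 6 scalings, at 0.666, 0.632 and 0.567. Eno1, the enolase of most tissues, had 69 and 297 mRNA reads and was 5.01-fold lower (3.80 to 6.53). Its footprints, 2577 and 570, were 2.18-fold lower (1.99 to 2.40). Beside them the muscle isozymes Eno3 and Hk2 had footprint ratios of 0.770 and 2.37. Differences between isozymes were not tested. The table lists genes by their untreated mRNA reads, whose median was 25 and lowest value 14. The count that placed a gene in the table is thus also one that its mRNA and efficiency ratios rest on. Hk1 (15), Ldhb (16) and Pgm5 (14) were near the lowest value, and Slc2a4 (23), Dmd (25) and Gpd2 (28) near the median. The shares and medians of all listed genes include many genes with such low counts. The part of this selection in these values was not tested. Macrophage markers were lower for 5 of 5 listed genes and fibroblast markers for 4 of 7, with 1 higher, in the same mRNA comparison. Over all listed genes 24.8% were lower and 31.8% higher. The part of these markers in the values of Hk1 and Eno1 was not tested. In whole muscle fewer cells of a type and less RNA per cell cannot be told apart.

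Of the 5 listed genes of the feeding and control class, 2 were called higher in footprints and 1 lower, beside 19.9% and 26.2% of all genes. Not all of these genes feed glucose into the pathway. Slc2a4, the insulin-responsive glucose transporter GLUT4, had 980 and 937 footprints and was 1.98-fold higher (1.81 to 2.17), with mRNA 2.67-fold higher (1.77 to 4.23) from 23 and 1326 reads, a call that was lost at 1.45 with the authors' constants. Gpd2, the mitochondrial enzyme of the glycerol phosphate shuttle, which passes cytosolic electrons to the respiratory chain, had 663 and 746 footprints and was 2.33-fold higher (2.10 to 2.59). Its mRNA, 28 and 1141 reads, was 1.89-fold higher (1.30 to 2.86) with TMM and 1.03 with the authors' constants. Its cytosolic partner Gpd1 had a footprint ratio of 1.18 (1.09 to 1.28). Pgm2 (now named Pgm1), a phosphoglucomutase between glycogen and glycolysis, gave 1.10 (1.05 to 1.16), and Pgm5, a relative found at cell junctions of muscle, was 3.08-fold lower (2.32 to 4.14) in footprints and 2.13-fold lower (1.13 to 3.69) in mRNA. The footprint calls of Slc2a4, Gpd2, Pgm5 and Eno1 were made under each of the 6 scalings.

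Aldoart1 (NM_001199270), a retrotransposed copy of Aldoa known from testis, was listed with 1008 and 26196 mRNA reads and 24241 and 9705 footprints. Its footprint ratio was 0.829 (0.809 to 0.849) and its mRNA ratio 1.21 (1.13 to 1.29). It was picked after its values were seen, and gene counts cannot show whether its reads came from Aldoa, so no value is given for aldolase A.

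The genes with the pattern most like the members' median were found by the Euclidean distance over the 4 libraries between log2 profiles, each centred on the gene's own mean, a measure that library scaling does not change. Among 990 other genes the nearest were Rbm25 (0.16), Pgm2 (0.16), Cct6a (0.17), Rbbp7 (0.19) and Vdac3 (0.19). The members themselves lay farther out, at 0.41 for Pgam2, 0.53 for Eno3, 0.87 for Hk2, 1.45 for Pfkm and 1.53 for Gapdh, so the median stands for none of them well. Single members were looked up after the values were seen. The gene nearest to Hk2 was Stac3 (0.11), a protein of excitation-contraction coupling. Those nearest to Gapdh were the ribosomal protein genes Rpl11 (0.36) and Rpl15 (0.39), followed closely by Ndufb9 (0.40), which is not a ribosomal protein gene.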

How the data were processed

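Untreated and treated tibialis anterior gave 1 mRNA and 1 footprint library per group, with footprints taken from part of the same homogenate per the labels' protocols, and 50 nt reads. The authors deposited 1 table of 1000 genes with a raw read count per library, per the file headers. It also gives normalized read counts, read here as CPM, because each deposited value is its count multiplied by a factor that is the same for every gene of a library. Trimmomatic, STAR, edgeR and the build mm9 appear in the submitters' processing notes with no roles. How reads were counted is not given in the sources here. The table lists the genes with the most untreated mRNA reads.

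Counts were scaled by TMM (edgeR 4.0.16, R 4.3.3) over the listed genes. Ratios have exact conditional binomial 95% intervals, and translation efficiency, with 0.5 added to each count, a normal interval on the log scale. All cover counting error only, as each group had 1 library. Reads carried no molecular identifiers, so amplified copies of a molecule were counted as separate reads and the intervals may be too narrow. With 1 library per group no test between conditions was made. Calls needed a 1.5-fold difference, an interval without 1 and 50 summed reads. Alternatives were DESeq2 1.42.0 size factors, listed totals, upper quartile, the total without the 20 most abundant genes, the authors' constants, no minimum or 200 reads, a 2-fold threshold and 5 added to each count. Centring on the median listed gene was added after the data were seen.

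The text names all listed members, every listed gene of the other glycolysis list, the 5 genes nearest in pattern and Dmd. Aldoart1 and the genes nearest to single members were added after the values were seen. The members and lists were chosen with earlier results of these data known. Symbols are those of the table, and the RefSeq identifiers of all 18 genes looked up were found in the GRCm38.p6 gene table. Coding lengths were not used here, so shares of reads among genes also reflect their lengths, and the planned analyses by length were not run.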

Additional observations from a re-analysis of the deposited data

How the results depend on the processing

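With 1 library per group, no library could be left out. No paired analysis was possible because each group has a single library. The median log2 mRNA ratio of all listed genes was 0.06 with TMM and 0.04 with DESeq2 size factors. It was −0.60 with listed totals, −0.34 by upper quartile scaling, −0.25 when the 20 most abundant genes were left out of the totals and −0.82 with the constants of the authors. Genes called higher went from 56.2% of mRNA calls to 24.2%, 35.7%, 40.7% and 16.8% in the last 4. Footprint medians lay between −0.29 and 0.05, and with the authors' constants 23.8% of footprint calls were higher, against 43.2%. The cause was not tested. A minimum of 200 summed reads tests fewer genes. With it the median log2 mRNA ratio of all listed genes was 0.21. Lower mRNA calls went from 247 to 160, and higher calls stayed at 317. In translation efficiency, higher calls over all listed genes went from 259 to 184 and lower calls from 317 to 312.

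In mRNA, members called higher went from 2 to 0 with the listed totals, the upper quartile, the total without abundant genes, the authors' constants and the 2-fold threshold, and to 1 with median centring. Members called lower went from 0 to 2, 2, 1 and 2 in the first 4 of these. Other glycolysis genes called higher in mRNA went from 2 to 1, 1 and 0 with the listed totals, upper quartile and authors' constants and to 1 at 2-fold. Those called lower went from 3 to 8, 8, 5 and 10 in the 4 scalings, to 5 with median centring and to 1 at a minimum of 200 reads, which tests fewer genes. Among members, mRNA ratios above 1 with TMM turned below it for Gapdh at 0.973 with the listed totals and 0.831 with the authors' constants, for Pfkm at 0.969 with those constants, and for Pgam2 at 0.835 with the listed totals, 0.996 by upper quartile and 0.713 with the constants. With the listed totals, upper quartile, total without abundant genes and authors' constants, Pkm2 turned to 0.731, 0.873, 0.932 and 0.624, Pgm2 to 0.669, 0.799, 0.853 and 0.571, and Aldoart1 to 0.766, 0.915, 0.977 and 0.654.

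In footprints, the authors' constants raised the lower calls from 1 to 2 among members, through Eno3, and from 2 to 5 among other genes, which were 3, through Hk1, with the listed totals and upper quartile. The 2-fold threshold left 1 other gene higher, and the total without abundant genes gave 3, through Pkm2. Pgam2 footprints turned to 0.907 with the constants. In translation efficiency, members called higher went from 1 to 2, through Pfkm, and other genes from 3 to 9, 7, 7 and 9 in the 4 scalings. Against summed reads instead of the median gene, members below it within a condition were 1 in untreated (from 0), Hk2 at 0.650, and 1 in treated muscle (from 2), where Pgam2 was at 1.16. Without the most abundant genes the members' share was 6.76% in untreated mRNA, 7.65% in treated mRNA, 8.69% in untreated footprints and 8.80% in treated footprints. With 5 added to each count 2 of the 5 nearest genes were shared. The shallow untreated mRNA library limits most the genes with the fewest reads there, Pgm5 (14), Hk1 (15) and Ldhb (16), and among the members Hk2 (66).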
